A study of Homo sapiens with 2 samples.

Results

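The transcription factors that set plasma cell and B cell identity, together with the myeloma oncogenes MYC and MAF, were examined in RNA-seq of the human multiple myeloma (MM) line ARP1. The members were 9 genes taken by symbol out of 57485 genes in the deposited tables, namely the plasma cell factors IRF4, PRDM1, IKZF1, IKZF3 and POU2AF1, the oncogenic factors MYC and MAF, and the B cell factors PAX5 and BCL6. The cells were ARP1-SRD5A1-KD cells, which carry a lentiviral hairpin (shRNA) against the steroid reductase gene SRD5A1 under a promoter that doxycycline (Dox) switches on. There was 1 library of untreated cells, labelled without Dox, and 1 library of cells treated with Dox, and the hairpin construct is present in both. The genotype label of the untreated cells names SRD5A1 and that of the Dox-treated cells names SRD5A2, while both titles name SRD5A1. The dose and duration of Dox for these libraries, and whether the cells are 1 clone, are not given in the sources used here. A library of Dox-treated cells without the hairpin was not analysed here, so Dox itself and the hairpin cannot be told apart.

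In B lymphocytes PAX5 holds the B cell programme in place and BCL6, a repressor, holds the germinal centre stage. Differentiation to a plasma cell switches both off, as IRF4 and PRDM1 (which encodes the repressor Blimp) become high, and BCL6 and PRDM1 are known to repress each other. Myeloma cells keep the plasma cell factors, depend on IRF4 and on the Ikaros family proteins IKZF1 and IKZF3, which cereblon-binding drugs degrade, and often carry raised MYC or a translocated MAF.

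The libraries held 45918570 expected counts without Dox and 48728927 with Dox. The limit that a count of 0 allows was set at 3 counts (1-sided at the 95% level), which equal 0.0653 and 0.0616 CPM, respectively. With 1 library per condition no difference below has a replicate check, and no p-value is given. The intervals are exact counting intervals at the 95% level (Clopper-Pearson for ratios, Poisson for levels) and reflect counting error alone. The hairpin's target SRD5A1 had 1375 counts (13.04 FPKM, fragments scaled to transcript length and to the size of the library) where the label says no Dox and 3014 counts (25.88 FPKM) where it says Dox, a log2 ratio of 0.98 (0.89 to 1.08). SRD5A1 RNA was thus the higher of the pair under the Dox label, opposite to a knockdown, and every direction given here rests on these labels. Ratios are log2 of FPKM + 0.1 with Dox over FPKM + 0.1 without Dox, a scale that understates the difference of low genes. A gene was counted as tested when it had at least 1 FPKM in at least 1 library, which 14859 genes and 9 of the 9 members did. BCL6 passed only by its level with Dox and PAX5 only by its level without Dox, so each of them had to differ in that direction.

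The cell type of the libraries was checked against markers. Several plasma cell genes were abundant in both. XBP1 had 834.39 and 715.87 FPKM without and with Dox, SDC1 (CD138) had 344.56 and 236.58 and JCHAIN had 5444.03 and 3515.08. Not all were. The 18 genes of the plasma cell list ranged from 0.06 to 5444.03 FPKM without Dox and from 0.18 to 3515.08 with Dox. CD38 had 26.62 and 26.61 FPKM, FCRL5 had 0.43 and 1.16 FPKM, and CD27, the lowest, had 2 and 7 counts. Of the B cell antigens, CD79A had 94 and 88 counts (2.11 and 1.78 FPKM), MS4A1 (CD20) had 14 and 24 counts, CD79B had 0 and 5 counts and CD22 had 0 counts in both libraries, where 0 allows up to 3 counts. The 16 markers of T, NK, myeloid, red, stromal and epithelial cells ranged from 0 to 1.93 FPKM without Dox and from 0 to 1.52 FPKM with Dox, and summed to 3.56 and 4.76 FPKM. Of these, 4 (CD2, CD3D, DCN and NKG7) had 0 counts in both libraries.

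Plasma cell factors far exceeded B cell factors in both libraries. The 5 plasma cell factors summed to 650.17 FPKM without Dox and 803.72 FPKM with Dox, while PAX5 and BCL6 together gave 1.81 and 5.30 FPKM. The quotient of these sums was 359 without Dox and 152 with Dox. MYC, IRF4 and PRDM1 were, in this order, the highest members in both libraries. Below them the order differed. Without Dox it was POU2AF1, MAF, IKZF1, IKZF3, PAX5 and BCL6, and with Dox it was IKZF3, MAF, POU2AF1, IKZF1, BCL6 and PAX5. The counting intervals of POU2AF1 and MAF, and those of IKZF1 and IKZF3, overlapped without Dox. With Dox only those of POU2AF1 and IKZF1 did. In bulk RNA, fewer cells with a transcript and less of it per cell cannot be told apart.

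**Figure D1:**
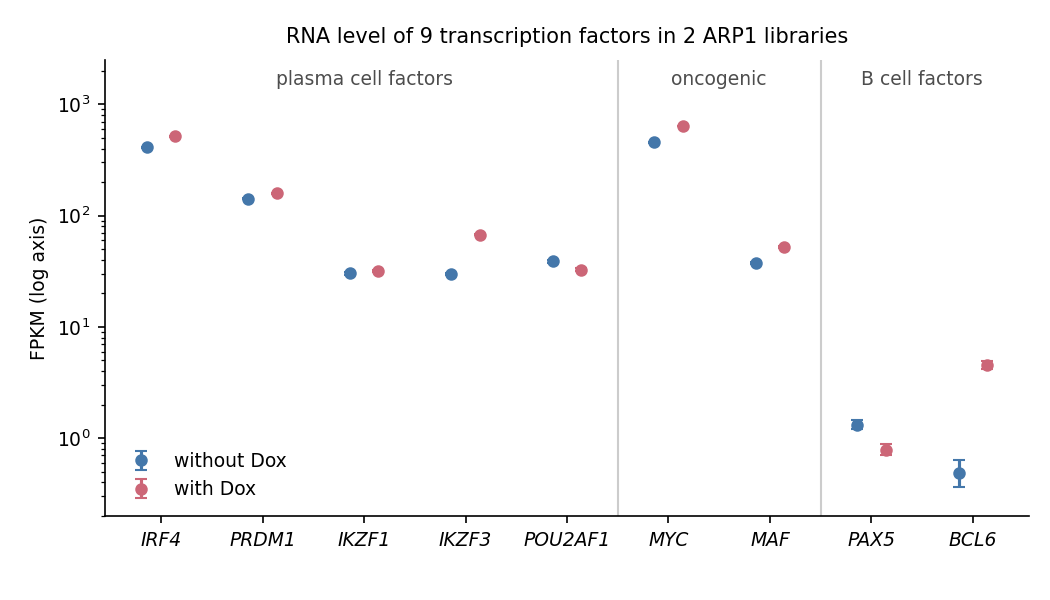
FPKM (log axis) of the 9 factors in the library labelled without Dox (blue) and the library labelled with Dox (red). Bars are 95% Poisson counting intervals, which are smaller than the points for most genes, and the large gap lies between the 7 plasma cell and oncogenic factors, all at 29.99 FPKM or more, and PAX5 and BCL6, at 4.51 FPKM or less.

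More than 2-fold differences were found for BCL6 and IKZF3. Thus 2 of 9 members were more than 2-fold higher with Dox, beside 17.0% of all tested genes, and 0 of 9 were more than 2-fold lower, beside 6.41%. In either direction this was 2 of 9, beside 23.4% of all tested genes. A count of 2 among so few genes is not set apart from that background. The median log2 ratio of all tested genes was 0.15, with quartiles of -0.32 and 0.71. Rescaling by the TMM factors of edgeR lowered the log2 ratios by 0.22 (by less for genes near the pseudocount) and moved this median to -0.06.

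**Figure D2:**
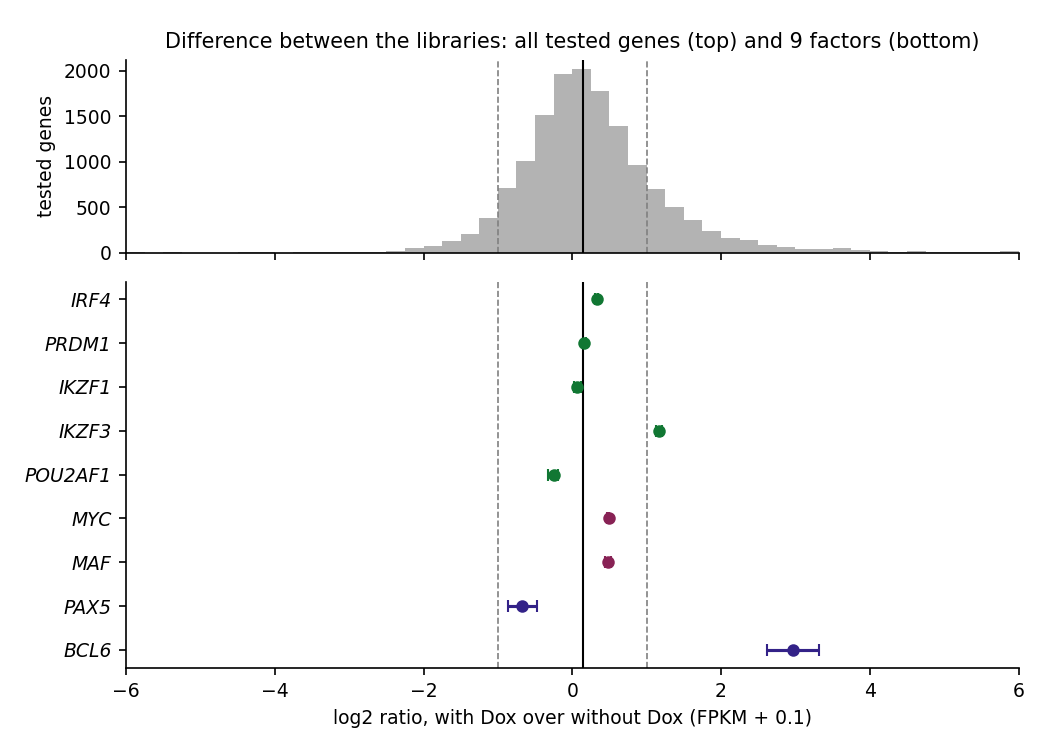
Top, number of tested genes by log2 ratio (with Dox over without Dox, bins of 0.25, values beyond 6 drawn in the outermost bins). Bottom, the 9 factors with 95% counting intervals (green, plasma cell factors, purple, oncogenic factors, blue, B cell factors), where the solid line is the median of all tested genes, 0.15, and the dashed lines mark 2-fold, which BCL6 and IKZF3 passed.

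IRF4 is the interferon regulatory factor on which myeloma cells depend. It lies on chromosome 6 from 391739 to 411447, forward strand (ENSG00000137265.14). Coordinates here are those of GENCODE release 29 on GRCh38, whose transcript identifiers and versions match all 103 transcripts listed for the members, although the submitters' processing notes name hg19. It was listed with 85125 counts and 409.73 FPKM without Dox and with 114528 counts and 513.92 FPKM with Dox. That placed it above 98.4% and 98.8% of the tested genes by level. Its log2 ratio was 0.33 (0.31 to 0.34), which is 0.17 above the median of all tested genes and higher than 59.1% of them.

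PRDM1, on chromosome 6 from 106086320 to 106109939, forward strand (ENSG00000057657.16), switches off the B cell programme in plasma cells. Its level was 141.48 FPKM (23957 counts) without Dox and 158.27 FPKM (29356 counts) with Dox, a log2 ratio of 0.16 (0.14 to 0.19). This ratio was 0.01 above the median of all tested genes, and it became -0.05 with the TMM factors, so its sign rests on the scaling. IRF4 was 2.9 times PRDM1 per length without Dox and 3.25 times with Dox. The gene ATG5 overlaps PRDM1 on the opposite strand, without a shared exon, and had 3350 and 4998 counts.

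The Ikaros proteins IKZF1 (Ikaros) and IKZF3 (Aiolos) are related zinc finger factors of lymphoid cells. IKZF1 (ENSG00000185811.18, chromosome 7 from 50304068 to 50405101, forward strand) had 6107 counts and 30.24 FPKM without Dox and 7094 counts and 31.68 FPKM with Dox. Its log2 ratio of 0.07 (0.02 to 0.12) lay 0.09 below the median of all tested genes and was -0.15 with the TMM factors. IKZF3 (ENSG00000161405.16, chromosome 17 from 39757715 to 39864188, reverse strand) started from the same level, with 9864 counts and 29.99 FPKM without Dox, and was listed with 23842 counts and 67.38 FPKM with Dox. It was thus 2.25-fold higher with Dox, a log2 ratio of 1.17 (1.13 to 1.20) that exceeded those of 86.3% of the tested genes. The quotient of IKZF3 over IKZF1 went from 0.992 to 2.13, and since both genes come from the same libraries, this quotient does not depend on the scaling. With the TMM factors and with the DESeq2 size factors the ratio of IKZF3 was 0.95 and 0.96, under 2-fold. The mean length of its transcripts, weighted by their estimated shares, was 7405 bases without Dox and 7507 bases with Dox, among 17 listed transcripts of 1246 to 9787 bases.

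POU2AF1, a coactivator that binds Oct factors at immunoglobulin promoters, had a lower level in the library labelled with Dox, as did PRDM1 and IKZF1 with the TMM and DESeq2 factors but on no other scale. It is on chromosome 11 from 111352252 to 111455630, reverse strand (ENSG00000110777.11). It had 4350 counts and 38.73 FPKM without Dox and 3829 counts and 32.47 FPKM with Dox, a log2 ratio of -0.25 (-0.32 to -0.19). This was 1.19-fold lower and 0.41 below the median of all tested genes. Its Oct partners POU2F1 and POU2F2 had log2 ratios of 0.21 and -0.41, and the other Ikaros genes IKZF2, IKZF4 and IKZF5 lay between 0.03 and 0.84. None of the 4 tested genes of these 5 relatives was past 2-fold, beside 23.4% of all tested genes in either direction.

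Of the B cell factors, BCL6 (ENSG00000113916.17, chromosome 3 from 187721377 to 187745727, reverse strand) was higher and PAX5 was lower in the library labelled with Dox. BCL6 was listed with 54 counts and 0.49 FPKM (0.368 to 0.639) without Dox and with 591 counts and 4.51 FPKM (4.15 to 4.89) with Dox. It was 9.2-fold higher, with a log2 ratio of 2.97 (2.62 to 3.32) that exceeded those of 98.2% of the tested genes. Because its level without Dox is low, the ratio depends on the pseudocount, and it was 1.89 with 1 FPKM in place of 0.1. Even with Dox its level exceeded only 30.2% of the tested genes. The mean length of its transcripts was 2636 bases without Dox and 2936 bases with Dox, among 11 listed transcripts of 342 to 4178 bases. PRDM1 was 289 times BCL6 without Dox and 35.1 times BCL6 with Dox. Whether the counting used strand is not given in the sources used here. The antisense gene AC072022.1 shares exon sequence with BCL6 and had 0 counts in both libraries, and a further antisense gene there, AC072022.2, has no row in the tables.

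PAX5 (ENSG00000196092.12, chromosome 9 from 36833275 to 37034185, reverse strand) had 447 counts and 1.32 FPKM (1.20 to 1.45) without Dox and 321 counts and 0.79 FPKM (0.706 to 0.881) with Dox. Its log2 ratio was -0.67 (-0.86 to -0.48), or 1.67-fold lower, and lay 0.83 below the median of all tested genes. The mean length of its transcripts was 7639 bases without Dox and 8615 bases with Dox, and the latter is the length of the longest of its 16 listed transcripts. PAX5 was 2.69 times BCL6 without Dox and BCL6 was 5.71 times PAX5 with Dox. The filter did not choose these members or set their levels. This opposite order is the same fact as PAX5 passing it only without Dox and BCL6 only with Dox, and is no separate result.

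The promoter windows of both B cell factors are shown because BCL6 protein is known to bind its own gene. The opposite directions of BCL6 and PAX5, which are the same fact as how each gene passed the filter, also led to this choice. RefSeq windows on GRCh38.p14, from 250 bases before to 50 bases after a start site, were used for 6 of the 9 members (10 windows). None was available for IKZF3 and POU2AF1, and MYC was set aside, so the matches below do not cover these 3 genes. Capitals mark matches to TTCNNNGAA, a palindrome of the type bound by BCL6 and by STAT factors. The windows lie on the reverse strand at chr3:187745419-187745718 and chr3:187736452-187736751 (BCL6) and at chr9:37034219-37034518 (PAX5).
BCL6 upstream start: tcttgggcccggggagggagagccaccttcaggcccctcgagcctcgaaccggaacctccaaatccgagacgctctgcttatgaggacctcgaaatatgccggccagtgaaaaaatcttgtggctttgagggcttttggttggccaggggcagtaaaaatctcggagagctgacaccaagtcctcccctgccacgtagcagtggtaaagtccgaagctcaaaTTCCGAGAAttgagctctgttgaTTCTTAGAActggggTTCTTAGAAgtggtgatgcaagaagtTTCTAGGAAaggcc
BCL6 downstream start: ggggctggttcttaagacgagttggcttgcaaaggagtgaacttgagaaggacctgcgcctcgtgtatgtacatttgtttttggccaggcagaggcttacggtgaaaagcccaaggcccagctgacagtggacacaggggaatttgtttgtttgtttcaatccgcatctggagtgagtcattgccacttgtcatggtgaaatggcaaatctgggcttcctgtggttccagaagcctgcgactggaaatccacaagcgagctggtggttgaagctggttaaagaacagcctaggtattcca
PAX5: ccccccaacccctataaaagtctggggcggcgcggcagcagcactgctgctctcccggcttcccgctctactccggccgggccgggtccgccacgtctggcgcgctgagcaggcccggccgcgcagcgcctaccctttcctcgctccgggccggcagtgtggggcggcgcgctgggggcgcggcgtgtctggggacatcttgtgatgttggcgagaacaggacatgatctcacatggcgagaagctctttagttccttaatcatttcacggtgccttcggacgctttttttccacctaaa
The upstream BCL6 window held 4 matches, which began at positions -28, -5, 11 and 37 from the start site, do not overlap one another and read TTCCGAGAA, TTCTTAGAA, TTCTTAGAA and TTCTAGGAA. Of 35116 windows of this length, 7.66% held at least 1 match and 7 windows (0.0199%) held 4 or more. The cut-off of 4 was taken from the upstream BCL6 window itself, so that share is no test. The other 9 windows of the members, the downstream BCL6 window and that of PAX5 among them, held 0. In the same 10 windows no match was found on either strand to GAAANNGAA (the type bound by IRF factors and PRDM1, in 8.11% of all windows), to the E-box CACGTG bound by MYC with MAX (7.26%) or to the octamer ATGCAAAT (1.77%). GGAANNGAA, the core of an Ets-IRF composite, had 1 match in the downstream PRDM1 window, beside 7.79% of all windows. TGCTGAC, the core of the MAF element, had 1 match in the same window, beside 4.19% of all windows, and it did not overlap the former. These motifs were chosen after the values were seen, a match is a description of the letters only, and which start site gave the RNA was not measured.

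Germinal centre genes, among which BCL6 acts, differed in both directions. The list held 10 genes, of which 6 were tested, with a median of -0.16 beside 0.15 for all tested genes. Of the 6, 1 was more than 2-fold higher (beside 17.0% of all tested genes) and 2 were more than 2-fold lower (beside 6.41%). MEF2B, a factor of germinal centre B cells known to act on BCL6, was listed with 30 counts and 0.54 FPKM without Dox and with 649 counts and 11.41 FPKM with Dox, a log2 ratio of 4.17 (3.71 to 4.64), and it passed the filter only by its level with Dox. Reads of MEF2B can also be assigned to the readthrough gene BORCS8-MEF2B, which had 382 and 838 counts, and both together had 412 and 1487 counts. BORCS8, the upstream neighbour, had 843 and 810 counts. The lower genes were ELMO1, at 73.84 and 32.83 FPKM (-1.17), and MME, which encodes CD10, at 4.07 and 1.34 FPKM (-1.53), and MYBL1 had a log2 ratio of 0.42.

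Other genes of the B cell programme lay on both sides of 0, with 4 above and 4 below, beside 58.4% above 0 among all tested genes. Of 18 genes, 8 were tested, with 1 more than 2-fold higher (CD72, 0.77 and 1.85 FPKM), 2 more than 2-fold lower (ID3 and SPIB) and a median of 0.23, beside 17.0% and 6.41% of all tested genes. CD72 passed the filter only by its level with Dox, which fixed its direction. With the TMM factors its ratio was 0.97 and that of ETS1 was -1.07. On that scale 0 were higher and 3 lower, beside 1928 and 1546 of the 14859 tested genes. ID3, an inhibitor of E proteins, was 13.1-fold lower, with 3600 counts and 79.06 FPKM without Dox and 290 counts and 6.02 FPKM with Dox (log2 ratio -3.69, -3.87 to -3.52). ETS1 had 104.71 and 57.79 FPKM (-0.86), and CIITA, the activator of MHC class II genes and a gene that PRDM1 represses, had 10.97 and 18.50 FPKM (0.75).

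The plasma cell programme had 17 tested genes of 18, with 4 more than 2-fold higher (beside 17.0% of all tested genes), 0 lower (beside 6.41%) and a median of 0.00. These counts are not set apart from that background, and FCRL5 among the 4 passed the filter only by its level with Dox. The 4 genes more than 2-fold higher were CREB3L2 (18.84 and 57.66 FPKM, log2 ratio 1.61), the surface antigen SLAMF7 (15.73 and 41.75 FPKM, 1.40), FCRL5 (0.43 and 1.16 FPKM, 1.25) and TNFRSF17, which encodes BCMA (97.72 and 203.73 FPKM, 1.06). Of the 17 tested genes, 8 had a log2 ratio above 0 and 9 below 0. Among those below 0 were JCHAIN (-0.63), FKBP11 (-0.55), SDC1 (-0.54), MZB1 (-0.37) and XBP1, which drives the secretory apparatus (-0.22). With the TMM factors the median of this list was -0.22, beside -0.06 for all tested genes. On that scale 3 of its genes were more than 2-fold higher, beside 1928 of the 14859 tested genes.

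Partners and relatives of IRF4 had 9 tested genes of 10, with a median of 0.08. Of these, 2 were more than 2-fold higher (beside 17.0% of all tested genes) and 2 lower (beside 6.41%). With the TMM factors 0 were higher and 3 lower, beside 1928 and 1546 of the 14859 tested genes. BATF3 and IRF2 then had ratios of 0.96 and 0.83. BATF, an AP-1 family partner of IRF4, had 19.41 FPKM without Dox and 7.27 FPKM with Dox (-1.40, -1.61 to -1.20). Its relative BATF3 had 7.47 and 17.03 FPKM (1.18), and IRF2 had 38.24 and 79.23 FPKM (1.05). SPIB, a partner of IRF4 on composite elements and a gene of the B cell list too, had 2.74 and 1.10 FPKM (-1.24), and SPI1 had 0 counts in both libraries.

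MYC (ENSG00000136997.17), a transcription factor that drives cell growth, lies on chromosome 8 from 127735434 to 127741434, forward strand. It was the highest member in both libraries, with 37253 counts and 456.1 FPKM without Dox and 56850 counts and 638.78 FPKM with Dox. Its log2 ratio was 0.49 (0.47 to 0.50), 1.4-fold higher, 0.33 above the median of all tested genes and higher than 66.4% of them. MYC was 1.11 times IRF4 without Dox and 1.24 times IRF4 with Dox.

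A list of 29 genes that MYC is known to activate, compiled by hand with earlier results of these data known, had a median log2 ratio below 0. All 29 were tested, 26 had a log2 ratio below 0, and 11 were more than 2-fold lower, beside 6.41% of all tested genes. Only 1 was more than 2-fold higher (SHMT2, at 0.92 with the TMM factors), beside 17.0% of all tested genes. The median was -0.83 beside 0.15 for all tested genes, and with the TMM factors -1.05 beside -0.06. TFRC, the transferrin receptor, had 181.12 FPKM without Dox and 42.43 FPKM with Dox (-2.09, -2.13 to -2.06). The folate carrier SLC19A1 had 47.18 and 11.94 FPKM (-1.97), and RRP9, of ribosomal RNA processing, had 55.84 and 16.24 FPKM (-1.78). The 3 targets above 0 were SHMT2 (1.13), CDK4 (0.18) and HSPD1 (0.07), and CDK4 and HSPD1 were below 0 with the TMM factors, at -0.03 and -0.15. SHMT2, a serine enzyme, is also known as a target of ATF4, whose part in this ratio was not tested. These 3 were named after their values were seen.

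Of 11 genes of the MYC network, 10 were tested, with 2 more than 2-fold higher (beside 17.0% of all tested genes), 0 lower (beside 6.41%) and a median of 0.54. MAX, the dimer partner that MYC needs to bind DNA, had 101.08 and 65.88 FPKM (-0.62, -0.69 to -0.55), so MYC was 4.51 times MAX per length without Dox and 9.7 times with Dox. Proteins of the MXD family, MNT and MGA compete with MYC for MAX. Of their genes only MXD1 passed 2-fold, and it had 2.61 and 6.81 FPKM (1.35). MXI1 had 13.94 and 27.04 FPKM (0.95), MXD4 had 8.32 and 15.20 FPKM (0.86) and MXD3 had 11.87 and 19.70 FPKM (0.73), and with the TMM factors these 3 ratios were 0.74, 0.65 and 0.51. MGA had 10.24 and 13.11 FPKM (0.35) and MNT had 12.99 and 12.61 FPKM (-0.04). MYCN, the other gene past 2-fold, had 1.29 and 4.51 FPKM (1.73), so MYC was 354 and 142 times MYCN.

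MAF (ENSG00000178573.6, chromosome 16 from 79585843 to 79600714, reverse strand) is a leucine zipper factor that is overexpressed in a subset of myelomas. It had 8839 counts and 37.55 FPKM without Dox and 14213 counts and 52.39 FPKM with Dox, a log2 ratio of 0.48 (0.44 to 0.52), nearly that of MYC. MAF was above 79.2% and 84.7% of the tested genes by level, while its relative MAFA had at most 1 count in either library. Genes that are known to be raised in MAF myeloma differed among themselves. CCND2 had 148.55 and 142.31 FPKM (-0.06), the integrin ITGB7 had 606.32 and 391.65 FPKM (-0.63), the chemokine receptor CCR1 had 83.70 and 39.02 FPKM (-1.10), and DEPTOR, an inhibitor of mTOR, had 15.29 and 52.59 FPKM (1.78). The small MAF gene MAFK had 12.25 and 5.18 FPKM (-1.23). In this list of 10 genes, 8 were tested and the median was -0.24. Of the 8, 1 was more than 2-fold higher (beside 17.0% of all tested genes) and 2 were lower (beside 6.41%).

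**Figure D3:**
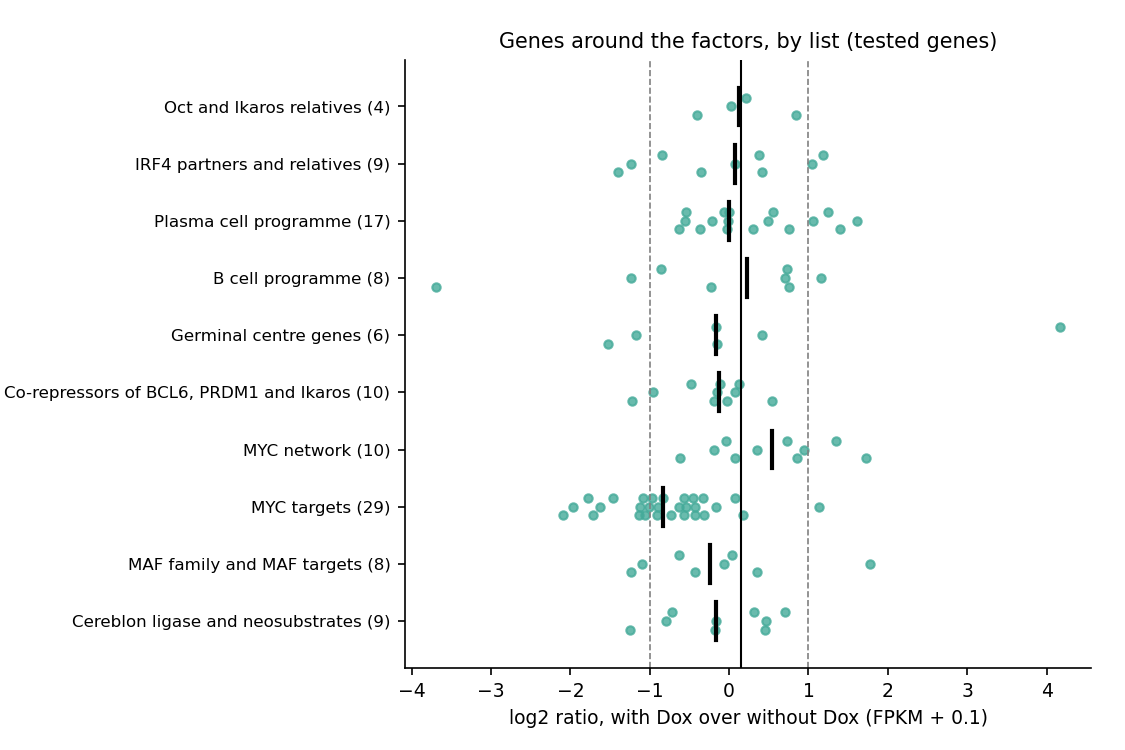
Log2 ratio (with Dox over without Dox) of each tested gene in the lists around the 9 factors, with the number of tested genes in brackets. Thick bars are list medians, the thin line is the median of all tested genes, 0.15, and the dashed lines mark 2-fold, and the median of the MYC targets, -0.83, lies farthest from that line among the 10 lists drawn.

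The co-repressors through which BCL6, PRDM1 and the Ikaros proteins silence genes were all tested, with a median of -0.13. Of the 10, 0 were more than 2-fold higher (beside 17.0% of all tested genes) and 1 was lower (beside 6.41%). CHD4, the remodeller that Ikaros proteins recruit, had 122.41 FPKM without Dox and 52.42 FPKM with Dox (-1.22, -1.25 to -1.19). The histone demethylase KDM1A had 44.87 and 23.06 FPKM (-0.96), and BCOR, a partner of BCL6, had 41.14 and 59.74 FPKM (0.54).

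The direction of 7 of the 9 members was shared by all 6 other scales and pseudocounts. The exceptions were PRDM1, with a range of -0.05 to 0.26 over all settings, and IKZF1, with a range of -0.15 to 0.16. Over the same settings the ratio of BCL6 ranged from 1.89 to 3.26, that of IKZF3 from 0.95 to 1.26, that of PAX5 from -0.87 to -0.37 and that of POU2AF1 from -0.47 to -0.16. The ratio of MYC ranged from 0.27 to 0.58, that of MAF from 0.26 to 0.60 and that of IRF4 from 0.11 to 0.42.

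**Figure D4:**
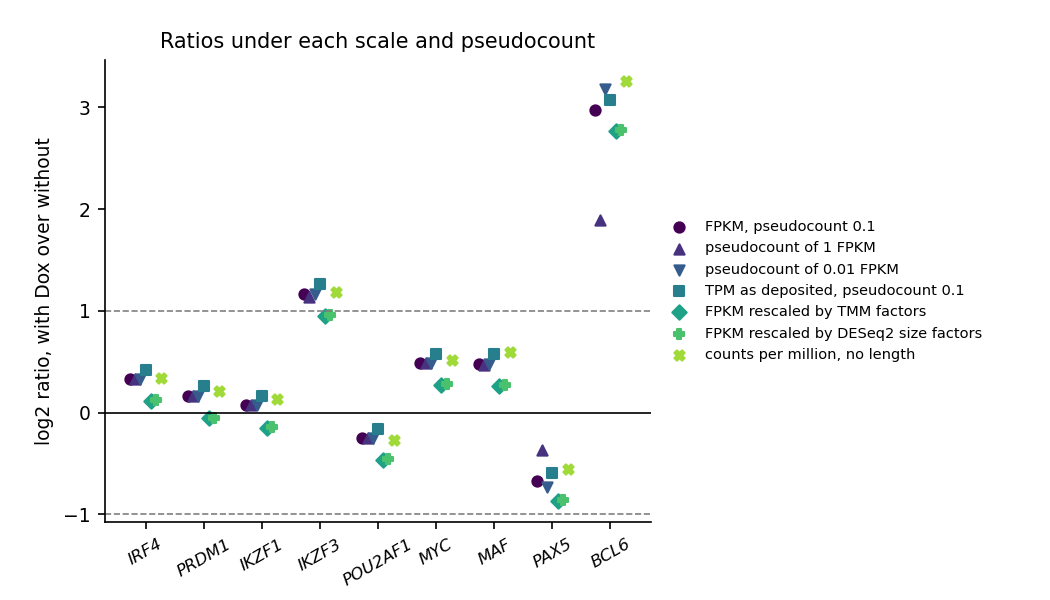
Log2 ratio of each factor under the main scale (FPKM with a pseudocount of 0.1) and 6 alternatives. Every setting left BCL6 above 1 and PAX5 and POU2AF1 below 0, IKZF3 crossed the 2-fold line (dashed) with the TMM and DESeq2 factors, and PRDM1 and IKZF1 crossed 0 (solid line) with the same factors.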

How the data were processed

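Poly(A) RNA was sequenced in 2 libraries, 1 per condition, with paired reads of 150 bases. Per gene, the authors deposited expected counts (not whole for 33.8% and 33.6% of the genes with a count), TPM values and FPKM values, with 2 columns of transcript length. The submitters' processing notes name Bowtie 0.12.2, HISAT2 2.1.0, StringTie 1.3.4d and hg19, in no stated role. The tables' layout is that of RSEM, and 202888 of 204675 listed transcripts are in GENCODE release 29 with the same version.

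Log2 ratios used the FPKM values plus 0.1, and genes under 1 FPKM in both libraries were set aside. The methods of the paper name edgeR, but 1 library per condition gives no estimate of the spread, so no test was run. TMM factors came from edgeR 4.0.16 and size factors from DESeq2 1.42.0 on rounded counts in R 4.3.3, and Python 3.11.15 with pandas 2.3.3, numpy 2.4.6, scipy 1.17.1 and matplotlib 3.10.9 did the rest. The ratio step was tested on simulated Poisson counts, without a pseudocount and with the same transcript lengths in both libraries. Genes with few counts were left out, so that test does not cover them, the pseudocount or differing lengths. The 9 members and the 12 lists (149 genes, compiled by hand) were chosen with earlier results of these data known. From each list up to 3 genes with the largest absolute ratio and at least 5 FPKM in the higher library are named. The other list genes in the text are cell type markers or were chosen after their values were seen. With 2 libraries each gene has 1 ratio, so likeness of pattern between genes was not measured. Alternatives covered the pseudocount, the scale, the filter and the factors. Some genes of the lists are not reported here.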

Additional observations from a re-analysis of the deposited data

How the results depend on the processing

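No paired analysis was possible because each condition has a single library, and for the same reason no library could be left out. The count of members more than 2-fold higher was 2 and became 1 with the TMM factors and with the DESeq2 factors (IKZF3 under 2-fold in both). It was also 1 with a minimum of 5 FPKM, which neither BCL6 nor PAX5 reached. The count of lower members stayed 0, and with that minimum it does not cover PAX5. Among all tested genes, 2521 were higher and 953 lower. With the TMM factors 1928 were higher and 1546 lower of the same 14859 genes, the background for the list counts with these factors. The DESeq2 factors gave 1946 higher and 1526 lower, and a pseudocount of 1 FPKM gave 1606 and 651. With no filter on low values 4735 were higher and 1897 lower, and with a minimum of 5 FPKM these were 1256 and 603. With TPM the log2 ratio of the summed plasma cell factors was 0.40 in place of 0.31. Of 24 list counts, 19 were within 1.5 times of the main count with the TMM factors. Those that were not were the higher genes among the IRF4 partners, the B cell programme and the MYC targets, which became 0 in each list, and the lower genes among the co-repressors and among the cereblon ligase genes, which became 2 in each list. Depth limits BCL6 without Dox, at 54 counts, and MEF2B, at 30 counts.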

Other observations

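Cereblon is the ligase receptor through which immunomodulatory drugs degrade IKZF1 and IKZF3. Its gene CRBN had 22.79 FPKM without Dox and 31.16 FPKM with Dox, by the labels (log2 ratio 0.45, 0.35 to 0.55). DDB1, the adaptor of the same ligase, had 145.73 and 61.38 FPKM (-1.25, -1.28 to -1.21), and the RING subunit gene RBX1 had 62.53 and 35.84 FPKM (-0.80). ZNF692, another zinc finger substrate, had 33.05 and 20.06 FPKM (-0.72). The cullin genes CUL4A and CUL4B of this ligase had log2 ratios of -0.18 and 0.70. The 9 genes of this list were all tested, with a median of -0.17, and 4 had a log2 ratio above 0 and 5 below 0. Of the 9, 0 were higher by more than 2-fold (beside 17.0% of all tested genes) and 1 was lower (beside 6.41%).

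Genes that immunoglobulin loci activate in other myelomas had widely different levels. NSD2 had 65.49 and 89.30 FPKM (log2 ratio 0.45) and CCND3 had 27.61 and 13.67 FPKM (-1.01, -1.11 to -0.90). FGFR3 stayed below 1 FPKM in both libraries, at 0.52 and 0.98, and CCND1 had 3.40 and 2.21 FPKM. Of these 4 genes 3 were tested, with a median of -0.60. Among the 3, 0 were more than 2-fold higher (beside 17.0% of all tested genes) and 1 was lower (beside 6.41%).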
